A study of Mus musculus with 6 samples.

Results

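The secondary, or specific, granules of neutrophils are represented here by the 6 genes Ngp, Camp, Ltf, Lcn2, Chil3 and Fcnb, which encode proteins of these granules. They were taken by name from the deposited table of transcripts per 1000000 (TPM), a unit that divides reads by transcript length and scales each library to the same total. All 6 had a single row among the 56750 rows of the table. The cells came from C57BL/6 mice and were sorted from femur marrow as LSK cells, which are negative for lineage markers and positive for Sca1 and cKit and hold the stem cells and multipotent progenitors. One group of 3 mice had colitis induced by 2.5% dextran sulfate sodium (DSS) for 5 days and is called DIC. The other group of 3 mice is labelled control, and the labels name no vehicle, age, sex or interval between treatment and harvest. The column headers number the DIC libraries 1 to 3 and the control libraries 1, 2 and 4, and these numbers are used as names.

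Neutrophils make their granules in succession. Promyelocytes load the primary granules with myeloperoxidase and serine proteases, myelocytes and metamyelocytes then make the specific granules, and gelatinase and surface molecules follow in band and segmented cells. In mice the transcription factor C/EBP epsilon is required for the specific granule proteins. Among the 6 genes, Ltf encodes lactoferrin, which binds iron, and Lcn2 encodes lipocalin 2, which binds bacterial siderophores. Camp encodes the precursor of the cathelicidin antimicrobial peptide, and Ngp the neutrophilic granule protein, which is related in sequence to cathelicidins and cystatins. Chil3 encodes a chitinase-like lectin also known as Ym1, and Fcnb encodes ficolin B, a pattern-recognition molecule of the lectin pathway of complement. Fcnb and Chil3 are known to be transcribed from an earlier stage of mouse neutrophil development than Ltf.

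Upstream sequence was available for all 6 genes, as the 250 bases before each start annotated by RefSeq on the build GRCm38.p6. The submitters name GRCm39 as their build, and the TPM table holds no coordinates, so the sequences describe the genes and were not joined to the measurements by position. The C/EBP consensus TTNNGNAA was searched on both strands, and its matches are in capitals in the 4 sequences below. These 4 are shown because Ltf had the largest and Fcnb the smallest fold change of the set, Ngp the highest level, and Camp no match. Ngp is at chr9:110419558-110419807 on the plus strand, Ltf at chr9:111019042-111019291 on the plus strand, Fcnb at chr2:28084879-28085128 on the minus strand and Camp at chr9:109849457-109849706 on the minus strand. Each line reads 5′ to 3′ along the gene and ends at the base before the start.

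Ngp: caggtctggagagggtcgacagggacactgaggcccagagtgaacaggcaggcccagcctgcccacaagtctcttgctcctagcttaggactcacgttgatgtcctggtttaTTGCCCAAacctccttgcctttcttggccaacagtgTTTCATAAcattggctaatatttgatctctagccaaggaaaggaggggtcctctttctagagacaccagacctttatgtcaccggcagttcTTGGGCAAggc
Ltf: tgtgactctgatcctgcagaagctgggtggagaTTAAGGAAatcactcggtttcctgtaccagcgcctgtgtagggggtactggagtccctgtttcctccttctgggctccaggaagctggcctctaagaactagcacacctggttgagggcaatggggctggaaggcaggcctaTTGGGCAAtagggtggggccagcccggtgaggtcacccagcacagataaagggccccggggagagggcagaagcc
Fcnb: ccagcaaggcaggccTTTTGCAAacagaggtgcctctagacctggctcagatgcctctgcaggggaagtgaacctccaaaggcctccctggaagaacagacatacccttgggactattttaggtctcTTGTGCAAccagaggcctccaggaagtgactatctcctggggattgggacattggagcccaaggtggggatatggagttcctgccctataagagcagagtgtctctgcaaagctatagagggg
Camp: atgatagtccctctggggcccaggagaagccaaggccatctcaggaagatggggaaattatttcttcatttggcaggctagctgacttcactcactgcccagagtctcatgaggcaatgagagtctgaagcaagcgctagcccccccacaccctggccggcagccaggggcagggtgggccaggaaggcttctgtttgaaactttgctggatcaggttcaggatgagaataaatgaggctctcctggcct

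The C/EBP letters occurred in 5 of the 6 upstream sequences and in 36.8% of the 32851 RefSeq sequences of the same length. Ngp held 3 matches, of which TTGGGCAA began 11 bases before the start and TTGCCCAA, the same letters read on the other strand, began 138 bases before it. Ltf held 2, one of them again TTGGGCAA, 75 bases before the start. Fcnb held 2 (TTTTGCAA and TTGTGCAA), Chil3 held 3 and Lcn2 held 1. The PU.1 core GAGGAA, searched on both strands, occurred in Ltf and Lcn2, thus in 2 of the 6, and in 23.3% of all sequences, with no overlap with a C/EBP match. Ngp, Camp and Ltf lie on chromosome 9, Lcn2 and Fcnb on chromosome 2 and Chil3 on chromosome 3. These matches describe letters and are not evidence of binding.

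All 6 genes were more abundant on average in DIC, by 1.71 to 4.10 times in mean TPM, but none passed the test across all genes. They ranked among the 71 highest rows in every DIC library and the 76 highest in control 2, and were lower in controls 1 and 4. The 5 genes other than Fcnb had every DIC library above every control library, an order that 7.08% of the 13496 tested genes also had. Control 2 lay nearest to DIC for all 6 genes.

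Ngp was the most abundant of the 6. It measured 17917, 15596 and 16508 TPM in DIC 1 to 3, against 3448, 11714 and 2272 TPM in controls 1, 2 and 4. It ranked between 3rd and 5th among all rows in DIC, and 24th, 6th and 46th in controls 1, 2 and 4. Camp followed with 9651, 10500 and 10505 TPM in DIC and 2716, 9226 and 1988 TPM in control. Every DIC library was above every control for both genes, yet the gap between the lowest DIC library and control 2 was small for Camp. Within DIC the highest Camp value was 1.09 times the lowest, and within control 4.64 times.

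The 2 genes whose products withhold iron from bacteria had the largest fold changes. Ltf measured 3272, 2306 and 2541 TPM in DIC, against 351, 1458 and 169 TPM in controls 1, 2 and 4. Lcn2 measured 5118, 3662 and 4200 TPM in DIC and 943, 2602 and 506 TPM in control. Neither gene overlapped between the groups, and DIC 1 was the highest library for both. Ltf was also the most uneven within control, where control 2 was 8.62 times control 4.

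Of the lectin genes, Chil3 separated the groups and Fcnb did not. Chil3 was nearly the same in the DIC libraries, at 6142, 5901 and 5907 TPM, against 1601, 4439 and 833 TPM in control. Fcnb measured 1217, 1518 and 1272 TPM in DIC and 488, 1352 and 499.8 TPM in control. Fcnb was the single member whose groups overlapped, since control 2 exceeded DIC 1 and DIC 3. Chil4, a close relative of Chil3 with which reads could be shared, was at 1.63 to 1.66 TPM in DIC and 0.26 to 0.78 TPM in control, so little of the measured signal was assigned to it.

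**Figure D1:**
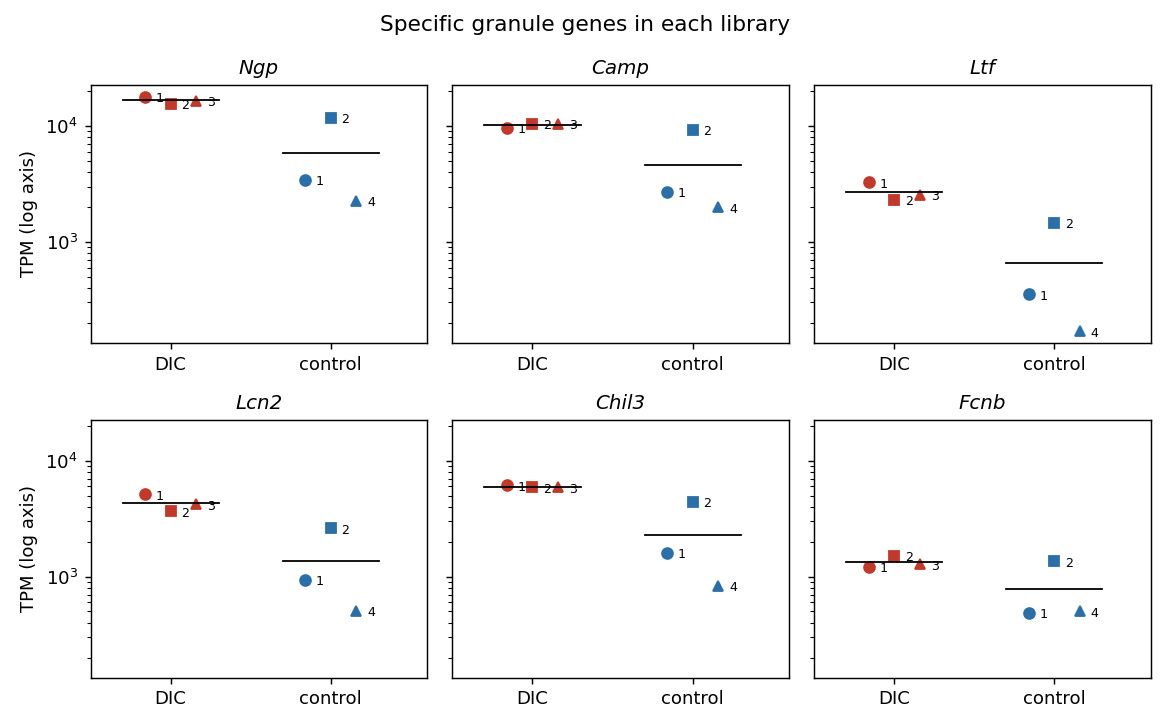
TPM on a log axis of the 6 specific granule genes in DIC (red, left) and control (blue, right), 1 point per library with its number and a line at the group mean. The 3 DIC points of each gene sit close together, while control 2 sits near DIC and controls 1 and 4 below it, so that for Fcnb control 2 (1352 TPM) lies inside the DIC range.

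Summed, the 6 genes accounted for 4.33%, 3.95% and 4.09% of total TPM in DIC 1 to 3, against 0.955%, 3.08% and 0.627% in controls 1, 2 and 4. The mean share was 4.12% ± 0.194 in DIC and 1.55% ± 1.33 in control (n = 3 each, SD). The groups did not overlap, and the difference of 2.57 percentage points had a two-sided exact permutation p of 0.1, the smallest that 3 against 3 libraries allow. The spread lay almost wholly in the controls, because control 2 held several times the share of the other controls.

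**Figure D2:**
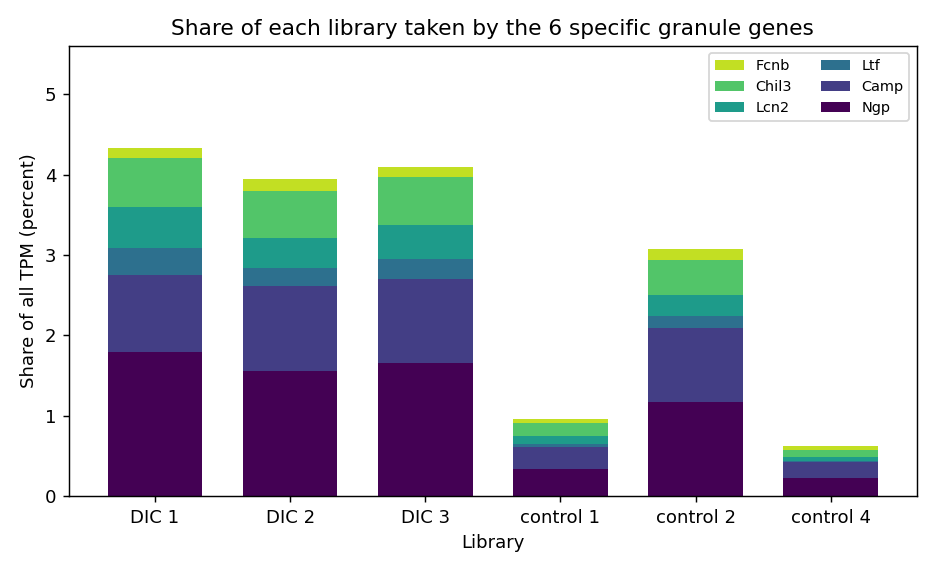
Share of all TPM in percent (bars from 0) taken by each of the 6 genes, stacked, with DIC libraries left and control libraries right. The stacks reach 3.95% to 4.33% in DIC, 3.08% in control 2 and below 1% in controls 1 and 4.

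Fold changes were fitted on log2(TPM + 1) with limma over all genes at 1 TPM or more in at least 3 libraries, with Benjamini-Hochberg adjustment. With all 6 libraries, 0 of the 6 members were called, where 0.037% of tested genes were called higher and 0.0222% lower. At an unadjusted p under 0.05, 6 of 6 members were higher, as were 6.43% of all tested genes. That count was 4 without any 1 of the DIC libraries, 3 without control 1, 3 without control 4 and 3 without the filter on low values. Over all tested genes the higher count was 868 with all libraries, and 435, 1015 and 474 without DIC 1, 2 and 3. It was 484 without control 1, 481 without control 4 and 1153 of 28869 without the filter. The median log2 fold change of the members was 1.80, beside -0.08 over all tested genes.

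Ltf had the largest log2 fold change, 2.59 ± 0.70 (SE, 95% interval 0.94 to 4.24, limma adjusted p = 0.212). Lcn2 came next at 1.99 ± 0.54 and Ngp at 1.88 ± 0.57, both with a limma adjusted p of 0.212. Chil3 was at 1.72 ± 0.55 (limma adjusted p = 0.212) and Camp at 1.47 ± 0.54 (limma adjusted p = 0.219). Fcnb had the smallest value, 0.94 ± 0.39, with an interval of 0.03 to 1.86 (limma adjusted p = 0.238). The intervals of all 6 genes lay above 0 before adjustment and overlapped each other.

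The call depended on control 2. Without it, which leaves 2 controls, the log2 fold change was 3.45 ± 0.32 for Ltf, 2.63 ± 0.29 for Lcn2, 2.57 ± 0.21 for Ngp, 2.37 ± 0.27 for Chil3, 2.14 ± 0.17 for Camp and 1.43 ± 0.13 for Fcnb (SE). All 6 then rose by limma, with adjusted p from 0.00997 for Ngp and Camp to 0.0162 for Chil3. In that fit 3.93% of tested genes were called higher and 8.45% lower. Each library was left out in turn, and control 2 was the control nearest to DIC for all 6 genes. Leaving it out had to raise their fold changes, so these calls are no separate support. The same limit holds below for other genes in which control 2 lay nearest to DIC. Over the alternatives in which the members were refitted, the adjusted p of Ngp ran from 0.00997 to 0.857. Control 2 is also the one control column that could be tied to a single sample by its labels.

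**Figure D3:**
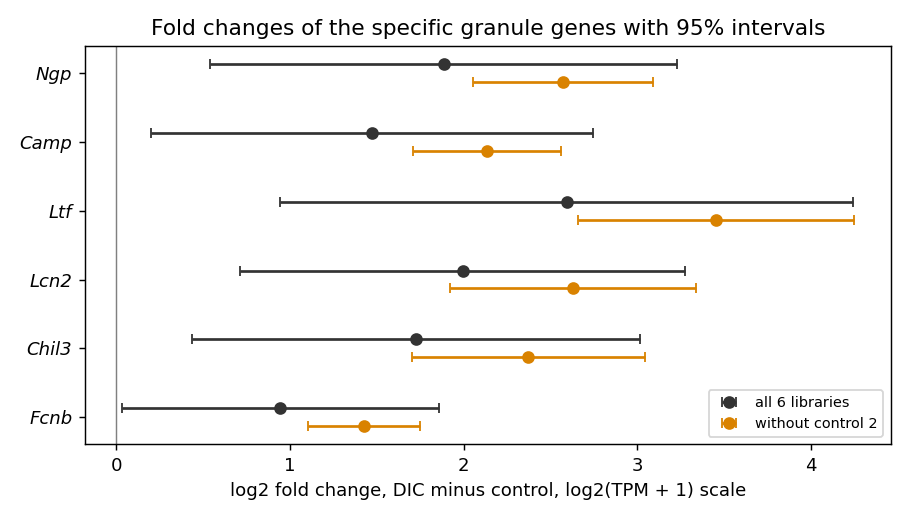
Log2 fold changes of the 6 genes, DIC minus control on the log2(TPM + 1) scale, with 95% intervals, for all 6 libraries (dark) and without control 2 (orange). Without control 2 the estimates move up, to 3.45 for Ltf and 1.43 for Fcnb, and the intervals narrow.

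The part of each gene in the summed TPM of the 6 was compared as a description, with no test. For 4 genes the groups did not overlap, and for Lcn2 and Chil3 they did. Ngp made up 41.4%, 39.5% and 40.3% of the summed TPM of the 6 genes in DIC, and 36.1%, 38.0% and 36.3% in controls 1, 2 and 4. Ltf made up 7.55%, 5.84% and 6.21% in DIC, against 3.68%, 4.74% and 2.70% in control. Both genes took a larger part in every DIC library than in any control. Camp took a smaller part in every DIC library, at 22.3%, 26.6% and 25.7% in DIC and 28.4%, 29.96% and 31.7% in control, and so did Fcnb, at 2.81%, 3.85% and 3.11% in DIC and 5.11%, 4.39% and 7.97% in control. Lcn2 took 11.8%, 9.28% and 10.3% in DIC and 9.88%, 8.45% and 8.08% in control. Chil3 took 14.2%, 14.9% and 14.4% in DIC and 16.8%, 14.4% and 13.3% in control, with control 1 the highest library. The Ltf level was 2.69, 1.52 and 1.997 times the Fcnb level in DIC, against 0.72, 1.08 and 0.338 times in control.

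A score set Ngp, Camp, Ltf and Lcn2, taken as later genes, against Chil3 and Fcnb, taken as earlier genes. The score was the difference of their mean log2(TPM + 1). It was 1.42, 1.03 and 1.26 in DIC 1 to 3, against 0.59, 0.88 and 0.29 in controls 1, 2 and 4. The means were 1.24 ± 0.20 in DIC and 0.58 ± 0.29 in control (n = 3 each, SD), a difference of 0.65 with a two-sided exact permutation p of 0.1, the smallest possible here. Every DIC library was above every control library on this score, with DIC 2 and control 2 closest to each other. The genes did not all follow the split, since Chil3 had a larger log2 fold change (1.72) than Camp (1.47).

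The primary granule list, drawn up for the preceding stage, had no call in either direction. Not all its genes encode contents of these granules, Calr being an example. Of 10 genes in this list, all tested, 8 had negative and 2 positive log2 fold changes, with a median of -0.18 and 0 called. At an unadjusted p under 0.05, 2 were lower, as were 1861 of all 13496 tested genes, and 0 were higher. With the neutrophil genes left out of the scaling the median was 0.04, with 6 positive and 4 negative, so no direction is given for the list. Mpo, the myeloperoxidase gene, measured 10026, 12402 and 10759 TPM in DIC and 13183, 11639 and 12432 TPM in control. Elane, which encodes neutrophil elastase, measured 10118, 12692 and 10703 TPM in DIC and 10904, 11467 and 12312 TPM in control. Both overlapped between the groups. Ctsg, the cathepsin G gene, averaged 1955 ± 198 TPM in DIC and 3079 ± 771 in control, and Calr, which encodes the chaperone calreticulin, 915 ± 168 TPM in DIC and 1359 ± 255 in control (n = 3 each, SD, limma adjusted p = 0.219 and 0.220).

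The 6 specific granule genes summed to 1.45, 1.09 and 1.29 times the primary granule list in DIC 1 to 3. In controls 1, 2 and 4 the ratio was 0.243, 0.902 and 0.159. On the log2 scale the mean was 0.34 ± 0.21 in DIC and -1.61 ± 1.30 in control (n = 3 each, SD), a difference of 1.95 with a two-sided exact permutation p of 0.1, again the smallest possible. The specific granule sum was above the primary granule sum in all 3 DIC libraries and below it in all 3 controls.

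**Figure D4:**
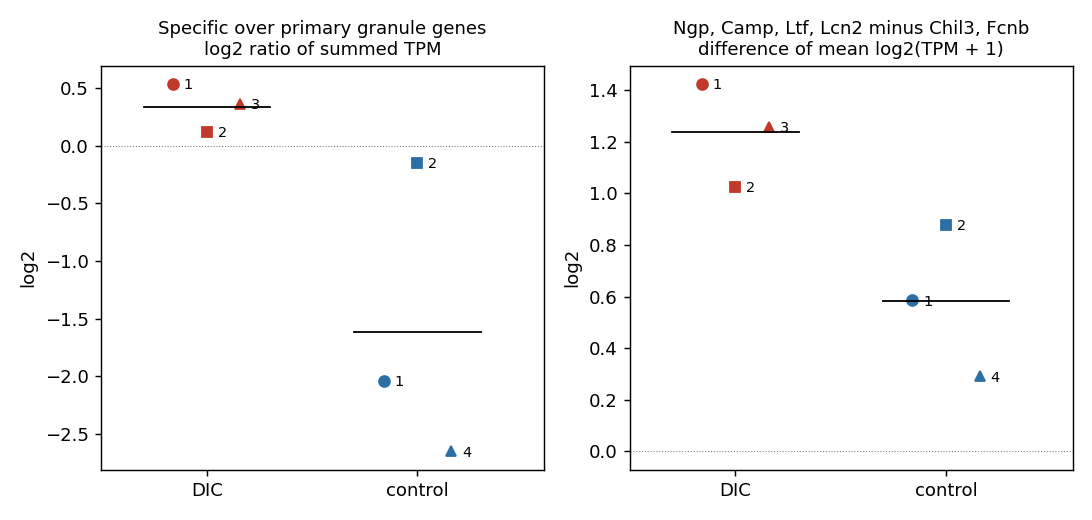
Left, log2 ratio of the summed TPM of the 6 specific granule genes to that of the 10 genes of the primary granule list. Right, mean log2(TPM + 1) of Ngp, Camp, Ltf and Lcn2 minus that of Chil3 and Fcnb. Points are libraries with their numbers, lines are group means, DIC left and control right. On both scales the groups do not overlap, and control 2 (-0.15 and 0.88) is the control closest to DIC.

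Other genes reported in or on specific granules were also higher on average. Of 22 genes in this list, 20 were tested, while Bpi and Ptx3 were at 0.06 TPM or less in every library. All 20 had positive log2 fold changes with a median of 1.59, 0 were called, 16 were higher at an unadjusted p under 0.05, and 10 had no overlap between the groups, where the shares of all tested genes were 6.43% and 7.08%. The 16 became 10 without DIC 1, control 1 or control 4, where the 868 of all tested genes became 435, 484 and 481. The 10 with no overlap became 16 without DIC 2 and 17 without control 2. The share of all tested genes with no overlap is not given for fewer libraries, where that order is met more easily. Itgam, which encodes the integrin CD11b, measured 172, 81.9 and 111 TPM in DIC, against 21.5, 58.1 and 15.4 TPM in control. Chil1, which encodes another chitinase-like protein, measured 284, 167 and 188 TPM in DIC, against 32.0, 103 and 19.5 TPM in control. Both separated the groups (limma adjusted p = 0.212 each). Without control 2, 11 of the 20 were called higher, Itgam and Chil1 among them, as were 530 of all 13496 tested genes.

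Some genes of late neutrophils followed another order, with DIC 2 among the controls. Mmp8 and Retnlg were chosen for this after their values were seen. Mmp8, a collagenase gene of the specific granule list, measured 562, 13.3 and 197 TPM in DIC 1 to 3, against 6.78, 14.6 and 6.69 TPM in controls 1, 2 and 4. Retnlg, which encodes a resistin-like protein, measured 5102, 81.4 and 1953 TPM in DIC and 63.7, 109 and 72.0 TPM in control. DIC 2 was thus below control 2 for both, whereas for Camp and Fcnb it was above DIC 1. For Ngp, Ltf, Lcn2 and Chil3, DIC 2 was the lowest DIC library, yet above every control. Summed over the 14 late neutrophil genes other than S100a8 and S100a9, DIC 1 to 3 had 7621, 727 and 3444 TPM, against 569, 749.5 and 551 TPM in controls 1, 2 and 4. Retnlg is in this sum and was its largest part in DIC 1 and DIC 3, so the sum mainly repeats that gene. Other genes of the list, such as Ly6g, had DIC 2 above every control. Summed erythroid markers (8 of 8 at 1 TPM or more) were also highest in DIC 1 and DIC 3, at 1259, 397 and 860 TPM in DIC 1 to 3, against 342, 433 and 332 TPM in controls 1, 2 and 4, and their part in this pattern was not tested.

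The late neutrophil list of 16 genes had 15 positive and 1 negative log2 fold changes, a median of 1.76, 0 called and 12 higher at an unadjusted p under 0.05. In 8 of the 16 every DIC library was above every control, and in 13 without DIC 2. With all libraries, 6.43% of all tested genes were higher at that p and 7.08% had that order. The share with DIC 2 left out is not given, and the order is met more easily with fewer libraries. The 12 became 7 without DIC 1 and 6 without DIC 3, control 1 or control 4. The 868 of all tested genes higher at that p became 435 without DIC 1 and 474 without DIC 3. They became 484 without control 1 and 481 without control 4. Ly6g, a surface marker of neutrophils, measured 367, 71.3 and 182 TPM in DIC, against 12.2, 48.8 and 7.5 TPM in control. Mcemp1, which encodes a myeloid membrane protein, measured 206, 106 and 146 TPM in DIC and 48.4, 91.0 and 43.1 TPM in control. Neither overlapped (limma adjusted p = 0.212 each). Without control 2, 8 genes of the list were called higher, as were 530 of all 13496 tested genes. Without DIC 2, the 2 genes Retnlg and Ccl6 were called higher, and so were Mmp8 and Adam8 of the specific granule list. Over all tested genes 16 were called higher without DIC 2. Retnlg and Mmp8 had been chosen after DIC 2 was seen to be low in them. DIC 2 was also low in Ccl6 and Adam8. Ccl6 measured 404, 19.7 and 213 TPM in DIC, against 20.55, 29.9 and 39.1 TPM in control. Adam8 measured 40.8, 2.92 and 20.4 TPM in DIC, against 3.47, 2.86 and 2.81 TPM in control. The calls of these genes without DIC 2 are therefore no separate support.

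None of the 10 regulators of granule genes was called with all libraries. Cebpe measured 180, 212 and 216 TPM in DIC, against 95.4, 231 and 94.96 TPM in controls 1, 2 and 4. Control 2 was its highest library, so the groups overlapped (log2 fold change 0.65 ± 0.34, limma adjusted p = 0.315). Gfi1, a repressor needed for granulocyte development, averaged 49.4 ± 4.01 TPM in DIC and 44.7 ± 12.2 in control (n = 3 each, SD). Klf5, a zinc-finger factor, measured 13.2, 11.6 and 13.4 TPM in DIC and 2.88, 10.8 and 3.47 TPM in control. Cebpb measured 55.0, 57.6 and 54.6 TPM in DIC, against 114, 65.4 and 109 TPM in control. Klf5 was higher and Cebpb lower in every DIC library (limma adjusted p = 0.212 each). Of all tested genes 7.08% were higher in every DIC library, and the share that was lower is not given. In this list 6 genes had positive and 4 negative log2 fold changes, with a median of 0.09 and 0 called. At an unadjusted p under 0.05, 1 was higher and 1 lower, beside 868 higher and 1861 lower of all 13496 tested genes. With neutrophil genes out of the scaling, 8 were positive and 2 negative, with a median of 0.29, so no direction is given for the list. Without control 2, Cebpe and Klf5 rose and Cebpb fell by limma (adjusted p = 0.0153, 0.0126 and 0.0126). Control 2 was the highest library for Cebpe and the control nearest to DIC for Klf5 and Cebpb, so these calls are no separate support. Over the alternatives run, the adjusted p of Cebpe ran from 0.0153 to 0.857.

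Receptors and partners of the granule proteins had no call in either direction. Of 10 genes, 7 were tested, 3 had positive and 4 negative log2 fold changes, and 0 were called. The 2 genes Mmp9 and Fpr2 were higher at an unadjusted p under 0.05, as were 6.43% of all tested genes. The median was -0.05, and 0.14 with neutrophil genes out of the scaling, so no direction is given. Slc22a17, described as a receptor for lipocalin 2, averaged 1.57 ± 0.19 TPM in DIC and 1.80 ± 0.73 in control (n = 3 each, SD). Lrp2, another receptor that takes up lipocalin 2, was listed at 0 in all 6 libraries. Masp1 and Masp2, the serine proteases that act with ficolins, had 0 TPM in every DIC library and at most 0.51 TPM in a control library. Fpr2, a formyl peptide receptor whose human counterpart binds the cathelicidin peptide, measured 113, 9.99 and 43.5 TPM in DIC, against 2.45, 11.5 and 1.89 TPM in control. Mmp9, whose human product forms a complex with lipocalin 2, measured 646, 28.8 and 243 TPM in DIC and 5.74, 26.1 and 4.27 TPM in control. For both genes DIC 1 and DIC 3 were far above every control, and DIC 2 was near control 2 (limma adjusted p = 0.212 each). Fpr2 is also in the specific granule list and Mmp9 in the late neutrophil list.

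**Figure D5:**
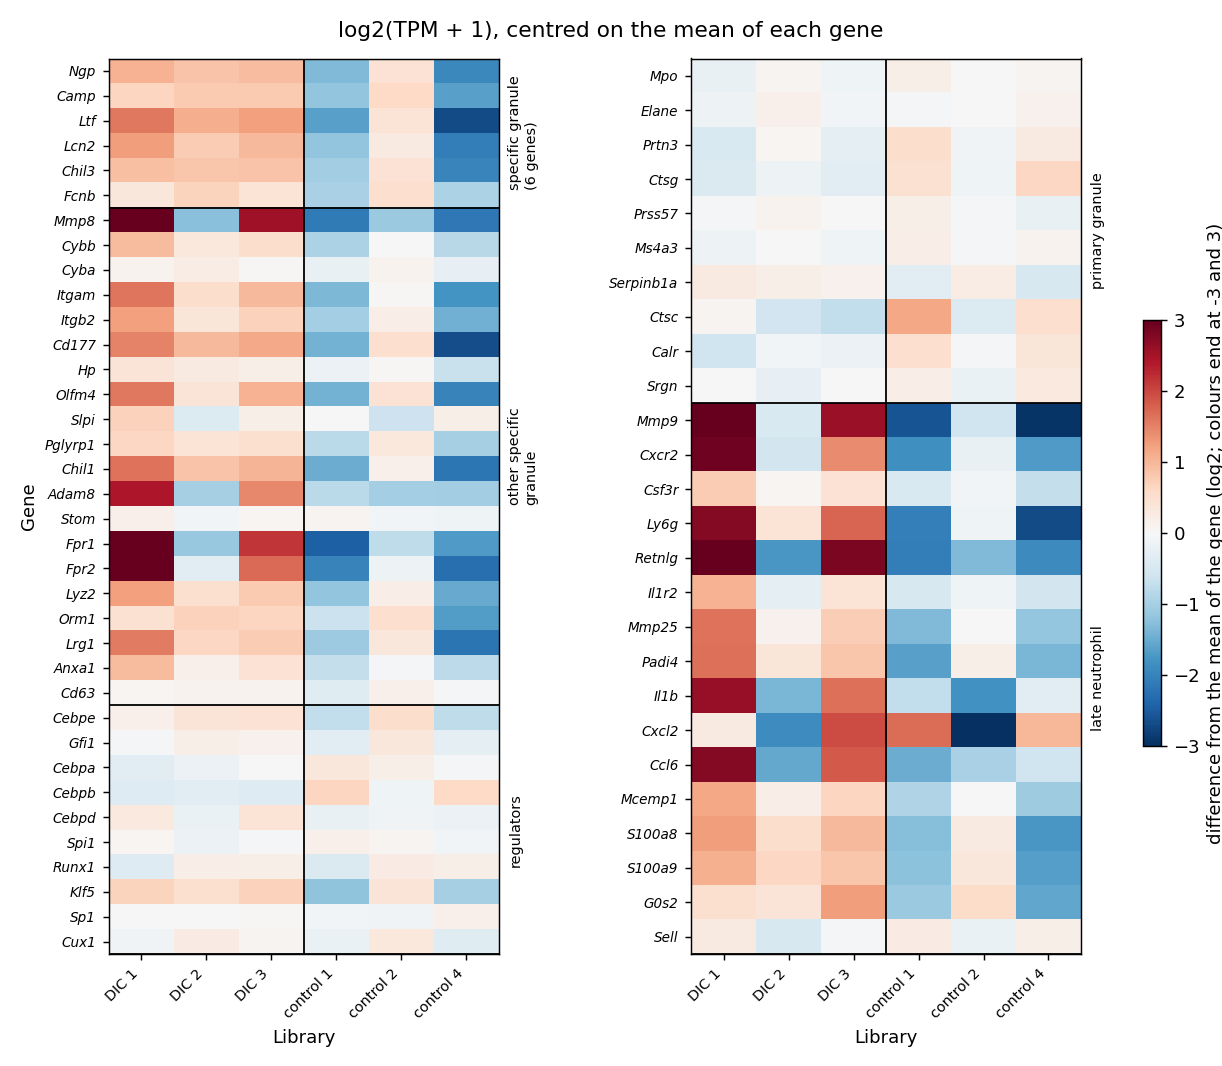
log2(TPM + 1) of the tested genes of 5 lists, each gene centred on its mean over the 6 libraries (red higher, blue lower), with DIC libraries left of the black line and control libraries right. The 6 specific granule genes are red in all DIC libraries and in control 2, and late genes such as Retnlg (81.4 TPM in DIC 2) are red in DIC 1 and DIC 3 alone.

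Genes with the most similar profile were sought among 7121 tested genes with a mean of at least 10 TPM, by the root mean square difference of centred log2(TPM + 1) over the 6 libraries. The smallest differences from the mean profile of the members were those of S100a9 (0.14), Sept5 (0.17), Hist1h4c (0.19), S100a8 (0.20), Adpgk (0.23) and Itgb2l (0.23). The members themselves lay at 0.07 for Ngp, 0.09 for Chil3, 0.17 for Lcn2, 0.18 for Camp, 0.48 for Ltf and 0.51 for Fcnb. S100a9, a subunit of calprotectin, measured 69749, 51010 and 59227 TPM in DIC, against 14055, 41595 and 10554 TPM in control. S100a8, the other subunit, measured 105476, 63966 and 86346 TPM in DIC and 18348, 52974 and 13283 TPM in control. Itgb2l, which encodes an integrin beta chain, measured 149, 104 and 116 TPM in DIC and 20.9, 75.7 and 11.7 TPM in control. The 6 specific granule genes summed to 0.247, 0.343 and 0.281 times the 2 calprotectin genes in DIC, and 0.295, 0.326 and 0.263 times in control, with overlap. With profiles scaled to unit SD, 1 of the first 6 genes, Itgb2l, was shared.

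Markers of the sort and of other marrow cells were set beside these values. The sorted phenotype is given by the labels, and in bulk RNA more cells of a type cannot be told apart from more RNA per cell. Kit was at 90.7, 82.3 and 95.2 TPM in DIC and 54.2, 99.5 and 68.2 TPM in control. Ly6a, which encodes Sca1, was at 23.8, 18.9 and 15.5 TPM in DIC and 19.7, 33.0 and 49.9 TPM in control. Both overlapped between groups, and each specific granule gene exceeded both in every library. All 10 stem and progenitor markers reached 1 TPM in at least 1 library, with sums of 222 to 264 TPM in DIC and 215 to 352 TPM in control. Of 9 genes for antigens of mature lineages, 7 reached 1 TPM, and Cd4 and Cd8a stayed below it. Among them, the CD11b gene Itgam and Ly6g were higher in every DIC library, as given above.

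Summed monocyte and macrophage markers (10 of 10 at 1 TPM or more) ranged over 4943 to 5267 TPM in DIC and 4622 to 7471 TPM in control. Eosinophil markers (9 of 9) ranged over 1790 to 2681 TPM in DIC and 1619 to 4231 TPM in control, and basophil and mast cell markers (6 of 7, without Cma1) over 314 to 499 TPM in DIC and 947 to 3375 TPM in control. B cell markers (7 of 8, without Pax5) ranged over 104 to 192 TPM in DIC and 207 to 467 TPM in control, and T and NK cell markers (7 of 9) over 1311 to 1785 TPM in DIC and 1758 to 2219 TPM in control. Nearly all of the T and NK sum was Nkg7, at 1302 to 1782 TPM in DIC and 1747 to 2206 TPM in control, while Cd3d, Cd3e, Cd3g, Trac, Ncr1 and Klrb1c were at 5.69 TPM or less in every library. Most of the monocyte sum was Ly6c2, at 4754 to 4994 TPM in DIC and 4382 to 7026 TPM in control. Megakaryocyte markers (6 of 6) ranged over 222 to 250 TPM in DIC and 99.8 to 193 TPM in control, and epithelial markers (3 of 5) over 5.69 to 10.5 TPM in DIC and 11.3 to 14.8 TPM in control. Basophil, B cell and epithelial sums were lower and megakaryocyte sums higher in every DIC library than in any control. Most of the epithelial sum was Krt18, at 4.31 to 7.4 TPM in DIC and 8.28 to 10.45 TPM in control. Single genes did not all follow their sum. Krt8 was at 1.26 and 1.39 TPM in DIC 2 and DIC 3, against 0.32 TPM at most in control. The B cell gene Ms4a1 was at 2.81 and 1.04 TPM in DIC 1 and DIC 3, against 0.41 TPM at most in control. Most of the megakaryocyte sum was Pf4, at 183 to 211 TPM in DIC and 77.2 to 161 TPM in control. Ppbp was also higher in every DIC library, at 2.1 to 3.37 TPM against 0.52 to 1.4 TPM in control. Itga2b, Gp9, Gp1bb and Vwf overlapped between the groups. Itga2b was at 16.5, 23.2 and 24.2 TPM in DIC 1 to 3, against 14.9, 34.2 and 19.3 TPM in controls 1, 2 and 4. The neutrophil precursor list, which contains the 6 genes, summed to 39861 to 49528 TPM in DIC and 6449 to 31194 TPM in control (10 of 10). The part of these cells in the values of the specific granule genes was not tested.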

How the data were processed

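RNA of sorted LSK cells was sequenced from low-input libraries, per the labels' protocols. The authors deposited 1 table of TPM values, whose 6 value columns each sum to 1000000. Per the submitters' processing notes, the tools were fastp 0.19.5, HISAT2 2.1.0 and StringTie 2.1.2, with GRCm39 as build. TPM keeps no depth, so depth is unknown and no counting interval is given. Control columns 1 and 4 have a clear group but could not each be tied to 1 sample, since 1 sample carries both numbers and the control sample numbered 3 matches no column. Library pairs correlated at 0.907 to 0.964, and no column repeated another. Whether a library is a single mouse is not stated, so p-values may reflect technical spread.

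GENCODE identifiers of GRCm38 gave symbols for 52081 of 56750 rows. Values were fitted as log2(TPM + 1) with limma 3.58.1 (R 4.3.3, trend, no covariate) for 13496 genes that reached 1 TPM in 3 or more libraries. Tests are two-sided, adjusted by Benjamini-Hochberg over these genes, with a threshold of 0.05. The method was tested on simulated data. Each gene varied independently there, so that test does not cover a difference shared by many genes within 1 library.

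The members and lists were chosen with earlier results of these data known. Named genes were all members, the 2 genes of lowest p in each list, a fixed set (Cebpe, Gfi1, Mpo, Elane, Ly6g, S100a8, S100a9, Kit, Ly6a) and the 6 nearest profiles, and others were named after their values were seen. Alternatives covered pseudocount, filter, scaling, fit options, a replicate block and leaving out each library.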

Additional observations from a re-analysis of the deposited data

How the results depend on the processing

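All 108 refits of the 6 members under 18 alternatives gave positive log2 fold changes. The 6 that passed the threshold were those without control 2, so members called higher ran from 0 to 6 with 1 library left out. Their median log2 fold change ran from 1.28 without control 4 to 2.47 without control 2. The difference in summed share ran from 2.11 to 3.33 percentage points, that of the later minus earlier genes from 0.50 to 0.80, and that of the ratio to primary granule genes from 1.43 to 2.68.

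Over all genes, 5 were called higher and 3 lower. With 1 library left out, higher calls ran from 0 (without DIC 1 or control 4, with 1239 and 1458 genes at an unadjusted p under 0.05) to 530 and lower calls from 0 to 1141 (both without control 2), and 16 were higher without DIC 2 and 3 without control 1. Higher calls were 8 with array weights, 2 with a pseudocount of 0.1 TPM, 3 with one of 5 TPM and 0 without a filter. Lower calls were 0 without a filter, and the split was 5 and 1 after quantile normalization. In the lists, calls ran from 0 to 11 (other specific granule genes, higher), 0 to 8 (late neutrophil genes, higher), 0 to 2 and 0 to 1 (regulators, higher and lower) and 0 to 1 and 0 to 1 (primary granule genes, Serpinb1a higher and Ctsg lower), with the highest values without control 2. The cause was not tested.

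With the replicate block, that is, the number in the column names, 3 genes were called higher and 5 lower over all genes, 0 members were called and their median was 1.28. At an unadjusted p under 0.05, 1 of 6 members, 6 of 20 other specific granule genes and 5 of 16 late neutrophil genes were then higher. Over all 13496 tested genes 284 were higher at that p with the block, against 868 without it. The groups share the numbers 1 and 2 alone, and deviations of same-numbered libraries correlated at -0.07 and -0.10. With so few pairs, and control 1 not tied to 1 sample, this cannot decide whether the numbers pair the libraries. The median over all genes was 0.11 with neutrophil genes out of the scaling, against -0.08, and the member median was then 2.03. Because depth is unknown, values near 0 cannot be given a limit.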
